A study of Mus musculus with 16 samples.

Results

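Collagen and laminin genes were taken as every gene whose annotated symbol on the array was of the form Col-number-a-number or Lam followed by a, b or c and a number. The rule found 52 of the 20726 named genes measured, carried by 84 of 31439 named array features. For each gene the feature with the highest mean over the 16 samples was used, and 17 genes had more than 1 feature. The members were 42 collagen and 10 laminin genes. By class, 16 were basement membrane genes (6 collagen IV chains and the 10 laminin chains), 11 were fibrillar collagens and 25 were other collagens.

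RNA came from mouse cells labelled as alveolar epithelial type II (AT2) cells, which make surfactant, taken at postnatal day 3. The 4 groups were wild-type pups in normoxia (4 samples), Fgf10+/- pups in normoxia (4), wild-type pups in hyperoxia (6) and Fgf10+/- pups in hyperoxia (2), where hyperoxia was 85% oxygen in a chamber from postnatal day 0 to day 3. Fgf10+/- pups carry 1 altered copy of the gene for fibroblast growth factor 10, a mesenchymal signal to the lung epithelium. The labels do not describe the allele or how the cells were isolated. The series text gives 4 samples per group, and the sample labels were followed. Nothing in the labels says how many pups made a sample or whether samples came from separate animals, so p-values measure only the spread between these samples.

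Collagens and laminins build the extracellular matrix. In a basement membrane, laminin trimers (an alpha, a beta and a gamma chain) polymerise beneath the cell, a collagen IV network lies under them, and nidogen and perlecan join the layers. Fibrillar collagens are made chiefly by fibroblasts and form the banded fibrils of the interstitium, while FACIT collagens decorate those fibrils and collagen VII forms the fibrils that anchor a basement membrane to the tissue below. In the alveolus, epithelium and capillary endothelium share a fused basement membrane, and its collagen IV contains the chains Col4a3, Col4a4 and Col4a5 besides Col4a1 and Col4a2.

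Values are log2 intensities, already brought to a shared distribution before deposit, and a difference of 1 is a 2-fold change. Levels of different probes are not comparable, so each gene was compared only with itself between arrays. A gene with a mean under 6 was called dim, since no detection call came with the values. By this rule 25 of the 52 members were dim, against 12427 of all 20726 genes. Dim members were 2 of 16 basement membrane genes, 6 of 11 fibrillar collagens and 17 of the 25 other collagens. The AT2 markers were present, with 11 of 11 not dim and a mean between 10.78 and 12.12 on the 16 arrays; Sftpc lay at 15.95 to 15.98, near the top of the scale. Markers of AT1 cells (9 of 9) and mesothelium (7 of 7) were not dim either, so this does not show that the samples held AT2 cells alone. Of the 11 AT2 markers, 9 were lower in hyperoxia in each genotype (medians -0.47 and -0.27), with 0 called. Fgf10 itself was dim (mean 4.85 over 16 arrays) and did not check the genotype labels. The array of wild-type normoxia replicate 1 stood apart in markers of mesenchymal cells (fibroblast marker mean 8.89, against 6.45 to 7.08 in the other 7 normoxia arrays). Wild-type hyperoxia differences that this array moved by over 1.5 times, or whose sign it turned, are therefore given with and without it. This covers the genes described with per-sample values except Col4a5, whose difference is given only with that array. Tests were limma's moderated test on all 20726 genes with Benjamini-Hochberg adjustment, and called genes are those whose adjusted p was under 0.05.

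Col7a1, the chain of the anchoring fibril, was the member that changed most plainly with hyperoxia. It was at 6.45, 5.26, 5.85 and 5.91 in wild-type normoxia and at 5.01, 5.35, 5.79 and 5.80 in Fgf10+/- normoxia. In wild-type hyperoxia it ran from 6.61 through a median of 7.18 to 8.26 (n = 6), and in Fgf10+/- hyperoxia it was at 7.46 and 7.20. Every 1 of the 8 hyperoxia values exceeded every 1 of the 8 normoxia values, which held for 1 of the 52 members and for 1.84% of all genes. Col7a1 rose 2.71-fold in wild type (log2 difference 1.44, SE 0.31, adjusted p = 0.0166) and 3.59-fold in Fgf10+/- (1.84, SE 0.42, adjusted p = 0.0286). It had 1 feature, with a mean of 6.49 over the 16 arrays. Its normoxia means, 5.87 in wild type and 5.49 in Fgf10+/-, were under the dim limit of 6. It was the 1 member called in each of these comparisons, where 3.13% and 2.45% of all genes were called (higher 1.77% and 1.18%, lower 1.36% and 1.26%). The wild-type call ended without wild-type normoxia replicate 2 (1.23, adjusted p = 0.0771). The Fgf10+/- call ended without any 1 of Fgf10+/- normoxia replicates 1 and 2 and hyperoxia replicates 1 and 2 (1.68, 1.80, 1.71 and 1.97, adjusted p = 0.0676, 0.0578, 0.197 and 0.125).

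A further comparison, the mean of the hyperoxia differences of both genotypes, uses all 16 samples and was chosen after seeing the data. It called 4 of the 52 members, all higher, where 4.97% of all genes were called higher, 6.14% lower and 11.1% in either direction. The 4 were Col7a1 (1.64, SE 0.26, adjusted p = 7.76e-04), Col25a1 (1.62, SE 0.37, adjusted p = 0.00974), Lama2 (1.40, SE 0.41, adjusted p = 0.0391) and Col4a1 (0.61, SE 0.19, adjusted p = 0.0439). Without wild-type normoxia replicate 1 it called 7 members, which added Col16a1, Col18a1 and Lama4, while 11.3% of all genes were called. In Fgf10+/- alone, leaving out that array called 1 member, beside 2.74% of all genes. Leaving out any 1 of 9 other arrays (wild-type normoxia 2 and 4, Fgf10+/- normoxia 1 and 4, wild-type hyperoxia 1, 2 and 5, Fgf10+/- hyperoxia 1 and 2) left 2 called, Col7a1 and Col25a1.

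**Figure D1:**
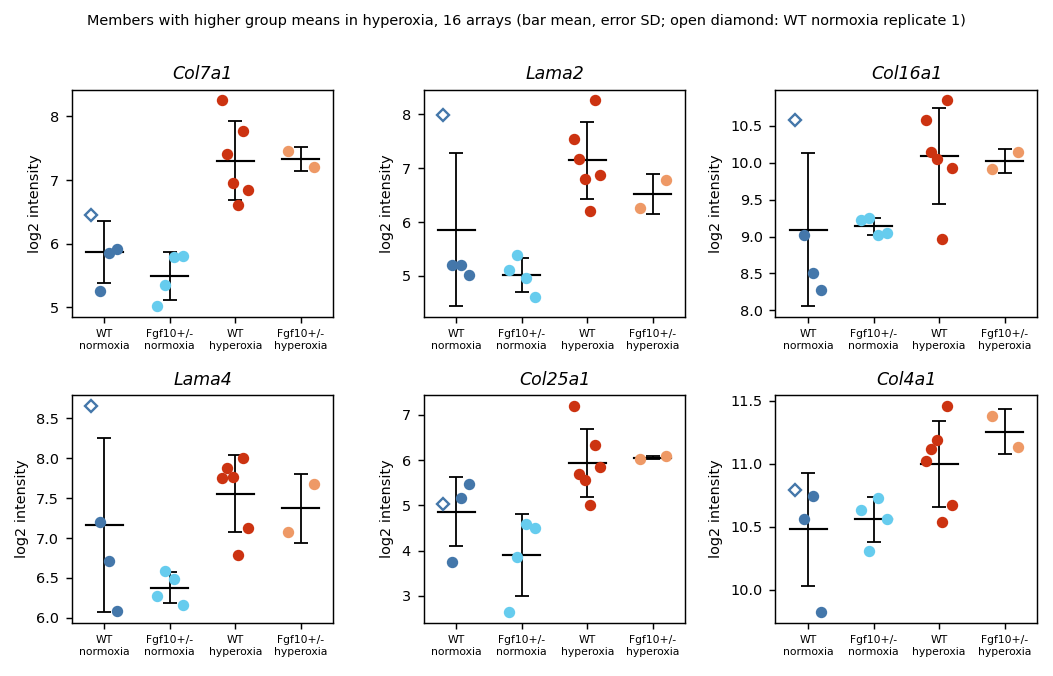
Log2 intensity (vertical axis, a separate range per gene) of 6 members on each of the 16 arrays, by group, with the group mean (bar) and SD. Hyperoxia points lie above normoxia points for Col7a1, and for Lama2 once wild-type normoxia replicate 1 (open diamond, 7.99) is set aside; for Col16a1, Lama4, Col25a1 and Col4a1 the points overlap.

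The promoters of 3 of these 4 genes, and of Col4a2, the partner of Col4a1, are printed for their start sites and motifs (RefSeq, build GRCm38.p6, from 250 bases before to 50 after the annotated start, each on the strand of the gene). Capitals mark matches on either strand to GGGCGG, the core of the GC box bound by SP factors, or to CCAAT, the CCAAT box. Col7a1 lies at chr9:108953336-108953635 on the plus strand and Lama2 at chr10:27616893-27617192 on the minus strand. Col4a1 lies at chr8:11312777-11313076 on the minus strand and Col4a2 at chr8:11312555-11312854 on the plus strand. The start sites of Col4a1 and Col4a2 are 21 bases apart on opposite strands, so their windows share 78 bases, the known head-to-head arrangement of this gene pair.
Col7a1: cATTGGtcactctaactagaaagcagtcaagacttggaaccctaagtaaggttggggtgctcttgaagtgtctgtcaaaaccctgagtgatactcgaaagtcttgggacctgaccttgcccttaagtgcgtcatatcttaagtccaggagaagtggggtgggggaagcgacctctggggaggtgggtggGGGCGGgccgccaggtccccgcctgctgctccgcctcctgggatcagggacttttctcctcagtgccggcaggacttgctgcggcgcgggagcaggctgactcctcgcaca
Lama2: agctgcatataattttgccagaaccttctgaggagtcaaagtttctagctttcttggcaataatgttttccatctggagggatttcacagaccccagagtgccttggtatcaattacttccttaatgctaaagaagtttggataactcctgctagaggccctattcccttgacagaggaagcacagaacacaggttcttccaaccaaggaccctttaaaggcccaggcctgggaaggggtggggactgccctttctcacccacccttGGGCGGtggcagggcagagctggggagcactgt
Col4a1: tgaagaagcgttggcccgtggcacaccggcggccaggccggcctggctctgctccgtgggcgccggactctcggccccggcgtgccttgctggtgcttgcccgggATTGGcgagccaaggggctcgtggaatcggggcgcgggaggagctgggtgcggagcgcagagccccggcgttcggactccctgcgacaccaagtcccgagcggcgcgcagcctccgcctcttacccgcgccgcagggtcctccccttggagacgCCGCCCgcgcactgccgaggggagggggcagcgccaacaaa
Col4a2: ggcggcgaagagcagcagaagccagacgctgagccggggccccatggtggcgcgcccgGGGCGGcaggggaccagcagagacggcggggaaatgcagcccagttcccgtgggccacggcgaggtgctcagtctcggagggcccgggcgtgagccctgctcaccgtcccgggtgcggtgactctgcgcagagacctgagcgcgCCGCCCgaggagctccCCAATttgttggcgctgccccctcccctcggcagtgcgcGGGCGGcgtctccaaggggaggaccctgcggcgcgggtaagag
GGGCGG was found in 60.5% of the 43 promoters listed for 39 members, against 35.7% of all 32851 promoters of that length. The median GC content was 59.7% and 52.7%, so the members' windows were also richer in the letters of that motif. CCAAT was found in 32.6% and 37.4% of the same promoters, counted on both strands. The motif TATAAA was found in 11.6% of the members' promoters and 13.6% of the whole set. The AP-1 motif, searched as TGANTCA, was found in 2.33% and 7.81%. None of the 4 printed windows held either of the last pair of motifs. A match is a description of letters, not a site.

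Among the laminin alpha chains, Lama2 and Lama4 had the largest differences. Lama2, the alpha chain of the laminin of muscle and mesenchyme, was at 7.99, 5.21, 5.21 and 5.02 in wild-type normoxia and at 5.11, 5.38, 4.97 and 4.61 in Fgf10+/- normoxia. In wild-type hyperoxia it ran from 6.20 through 7.02 to 8.27, and in Fgf10+/- hyperoxia it was at 6.26 and 6.78. Its normoxia means, 5.86 in wild type and 5.02 in Fgf10+/-, were under the dim limit of 6. Replicate 1 of wild-type normoxia lay among the hyperoxia samples, and the other 7 normoxia samples lay below all 8 hyperoxia samples. With replicate 1 set aside, 2 members (Col7a1 and Lama2) and 2.51% of all genes were without overlap and higher in hyperoxia. The differences were 1.29 in wild type (SE 0.50, adjusted p = 0.176) and 1.50 in Fgf10+/- (SE 0.66, adjusted p = 0.264), so neither was called alone. Without replicate 1 the wild-type difference was 2.00 (adjusted p = 0.00464), and Col16a1, Col7a1 and Lama2 were called, where 3.07% of all genes were. The other Lama2 feature gave 0.58 and 1.28. On that feature wild-type normoxia replicate 2 (5.59) lay above wild-type hyperoxia replicate 4 (5.48), so the separation did not hold. The averaged Lama2 rise was not called with the mean of all features (1.16, adjusted p = 0.0653) or the replicate block (1.06, adjusted p = 0.109). Leaving out any 1 of several arrays ended that call too. Lama4, the alpha chain of vascular basement membranes, was at 8.66, 7.20, 6.71 and 6.09 in wild-type normoxia and at 6.27, 6.59, 6.49 and 6.16 in Fgf10+/- normoxia. It ran from 6.79 through 7.76 to 8.01 in wild-type hyperoxia and was at 7.07 and 7.68 in Fgf10+/- hyperoxia. The wild-type groups overlapped and the Fgf10+/- groups did not. In Fgf10+/- 12.4% of all genes were higher in hyperoxia without overlap. The Lama4 differences were 0.39 (SE 0.38, adjusted p = 0.644) and 1.00 (SE 0.51, adjusted p = 0.342), and the wild-type one was 0.89 without wild-type normoxia replicate 1 (adjusted p = 0.124).

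Lama5, the main alpha chain of mature alveolar basement membrane, lay close together on the 16 arrays. Its values were 11.24, 11.28, 11.61 and 10.87 in wild-type normoxia, 11.71, 11.44, 11.66 and 11.82 in Fgf10+/- normoxia, 10.97 through 11.26 to 11.50 in wild-type hyperoxia and 11.47 and 11.07 in Fgf10+/- hyperoxia. Its hyperoxia differences were -0.01 in wild type (95% interval -0.39 to 0.36; -0.02 without wild-type normoxia replicate 1) and -0.39 in Fgf10+/- (-0.89 to 0.12). Lama1 was dim. Of the chains that join these alpha chains, Lamb1 differed by 0.25 and 0.32, Lamb2 by -0.35 and -0.10 and Lamc1 by 0.15 and 0.04 (SE 0.20 to 0.39, adjusted p from 0.384 to 0.969). Lamb1 read 11.12, 9.86, 9.77 and 9.43 in wild-type normoxia, 9.63, 9.56, 9.51 and 9.41 in Fgf10+/- normoxia, 9.54 through 10.46 to 10.66 in wild-type hyperoxia and 9.81 and 9.89 in Fgf10+/- hyperoxia. Wild-type normoxia replicate 1 was its highest array, and the other 7 normoxia arrays lay between 9.41 and 9.86. Without that array the wild-type difference was 0.61 for Lamb1 (adjusted p = 0.182) and 0.26 for Lamc1 (adjusted p = 0.645). Lamb2 read 9.69, 9.87, 9.61 and 8.98 in wild-type normoxia, 9.00, 9.46, 9.87 and 9.77 in Fgf10+/- normoxia, 9.08 through 9.19 to 9.33 in wild-type hyperoxia and 9.48 and 9.38 in Fgf10+/- hyperoxia. Its hyperoxia values all lay within the normoxia range of 8.98 to 9.87. Lamc1, the gamma chain shared by most laminins, read 10.77, 10.50, 10.88 and 9.66 in wild-type normoxia, 10.93, 10.41, 10.72 and 10.60 in Fgf10+/- normoxia, 10.22 through 10.72 to 10.86 in wild-type hyperoxia and 10.92 and 10.49 in Fgf10+/- hyperoxia. The groups overlapped.

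Lama3 and Lamb3, chains of the epithelial laminin that binds hemidesmosomes, were not called in either hyperoxia comparison. Lama3 was at 6.64, 7.72, 7.99 and 6.77 in wild-type normoxia and at 7.90, 7.75, 8.48 and 8.20 in Fgf10+/- normoxia. It ran from 6.91 through 7.51 to 7.71 in wild-type hyperoxia and was at 9.02 and 7.29 in Fgf10+/- hyperoxia, so the first of the latter pair was the highest of the 16 arrays and the other lay within the range of the rest. Its hyperoxia differences were 0.17 and 0.08 (SE 0.33 and 0.44, adjusted p = 0.835 and 0.959), and the wild-type one was -0.04 without wild-type normoxia replicate 1. Lamb3 was at 9.11, 10.04, 10.25 and 9.43 in wild-type normoxia and at 9.69, 9.64, 10.59 and 10.11 in Fgf10+/- normoxia. It ran from 8.87 through 9.19 to 9.66 in wild-type hyperoxia and was at 10.39 and 9.11 in Fgf10+/- hyperoxia. Its differences were -0.50 and -0.26 (SE 0.29 and 0.39, adjusted p = 0.390 and 0.804). Fgf10+/- hyperoxia replicate 1, highest in Lama3, was also the array with the highest mean of the 9 AT1 markers (11.39, with 9.87 to 11.27 on the other 15), which mark the flat cells of gas exchange; the part of those cells in these values was not tested.

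The 6 collagen IV chains were measured above the dim limit. Col4a1 was at 10.79, 10.56, 10.74 and 9.82 in wild-type normoxia and at 10.63, 10.31, 10.73 and 10.56 in Fgf10+/- normoxia. It ran from 10.54 through 11.07 to 11.46 in wild-type hyperoxia and was at 11.38 and 11.13 in Fgf10+/- hyperoxia. The wild-type groups overlapped and the Fgf10+/- groups did not, as for 12.4% of all genes higher in Fgf10+/- hyperoxia. Its differences were 0.52 (SE 0.22, adjusted p = 0.222) and 0.70 (SE 0.30, adjusted p = 0.249). Col4a1 had 10 features, whose median SD within an array was 0.06, and all 10 differences were positive, from 0.38 to 0.58 in wild type and from 0.59 to 0.99 in Fgf10+/-. Repeat features of 1 gene on 1 array are not replicates. Its averaged rise was no longer called with the mean of all features (0.59, adjusted p = 0.0537) or with any 1 of 11 arrays left out. Col4a2, the partner chain of Col4a1 in the same trimer, was at 10.61, 10.77, 10.90 and 10.21 in wild-type normoxia and at 10.58, 10.37, 10.93 and 10.69 in Fgf10+/- normoxia. It ran from 10.13 through 10.99 to 11.16 in wild-type hyperoxia and was at 11.20 and 10.99 in Fgf10+/- hyperoxia. Its differences were 0.22 and 0.45 (SE 0.22 and 0.29, adjusted p = 0.649 and 0.474).

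Like Lama3, the chains of the alveolar and glomerular trimer, Col4a3, Col4a4 and Col4a5, were highest on Fgf10+/- hyperoxia replicate 1, as was Col4a2 (11.20, next highest 11.16). For Col4a4 this held only on the feature used. On the other 2 Col4a4 features that array read 8.47 and 6.09, with up to 8.60 and 6.91 on other arrays. Col4a3 was at 6.62, 6.91, 7.63 and 6.24 in wild-type normoxia and at 7.61, 6.99, 7.75 and 7.26 in Fgf10+/- normoxia. It ran from 6.32 through 7.03 to 7.53 in wild-type hyperoxia and was at 8.71 and 6.80 in Fgf10+/- hyperoxia. Col4a4 was at 8.95, 9.37, 10.33 and 8.65 in wild-type normoxia and at 9.93, 9.63, 10.14 and 10.11 in Fgf10+/- normoxia. It ran from 8.80 through 9.22 to 9.71 in wild-type hyperoxia and was at 10.56 and 9.00 in Fgf10+/- hyperoxia. In both genes the groups overlapped. The hyperoxia differences were 0.09 and 0.35 for Col4a3 and -0.11 and -0.17 for Col4a4, with standard errors of 0.32 to 0.48. Without wild-type normoxia replicate 1 the wild-type ones were 0.01 and -0.23. The other 2 Col4a4 features gave -0.12 and -0.19 in wild type and -0.41 and -0.65 in Fgf10+/-. Col4a5 read 7.88, 8.21, 8.83 and 7.62 in wild-type normoxia, 7.69, 7.45, 8.66 and 8.10 in Fgf10+/- normoxia, 8.05 through 8.38 to 8.65 in wild-type hyperoxia and 9.08 and 8.40 in Fgf10+/- hyperoxia, and its groups overlapped too. It differed by 0.22 and 0.77 (SE 0.27 and 0.36, adjusted p = 0.723 and 0.297) and Col4a6 by -0.26 and 0.20 (SE 0.19 and 0.26, adjusted p = 0.521 and 0.763).

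**Figure D2:**
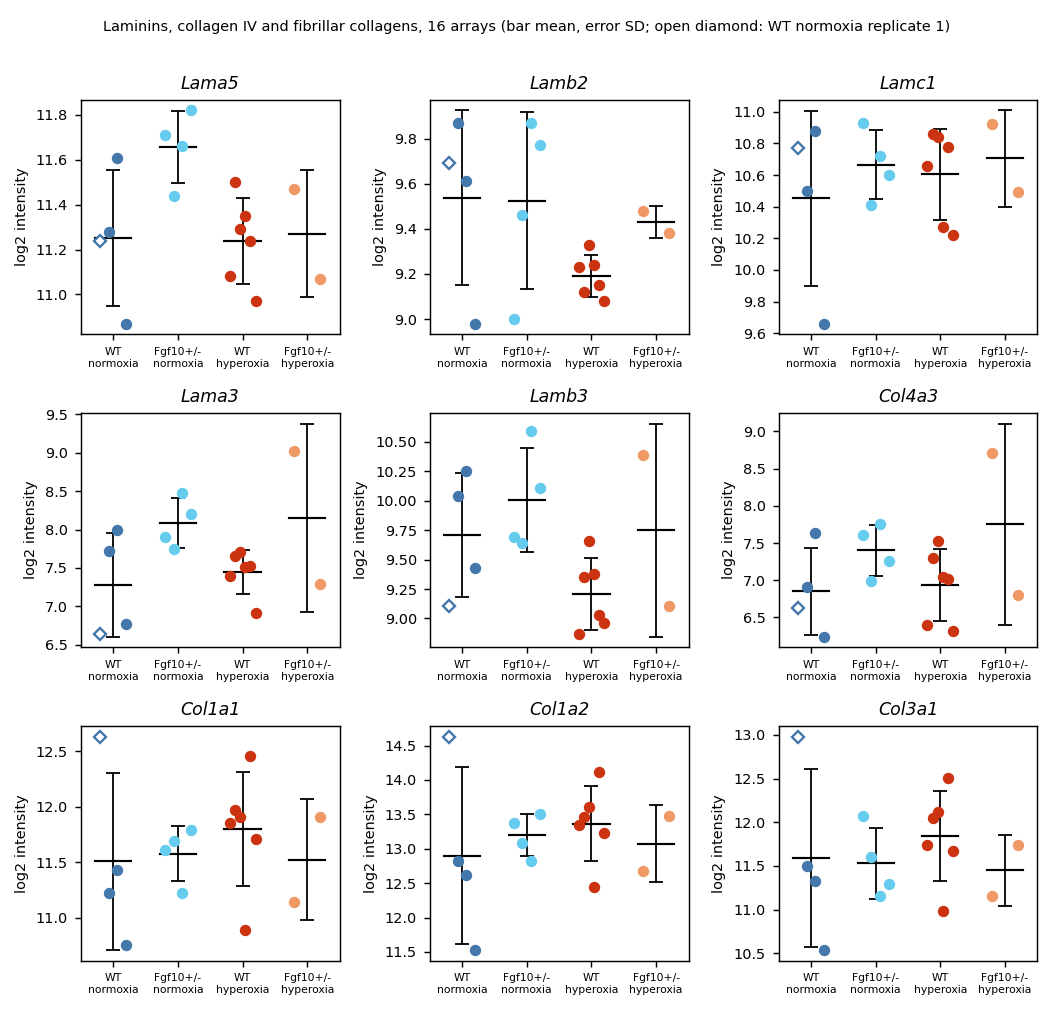
Log2 intensity (vertical axis, a separate range per gene) of 5 laminin chains, Col4a3 and 3 fibrillar collagens on each of the 16 arrays, by group, with the group mean (bar) and SD. Fgf10+/- hyperoxia replicate 1 is the higher of its pair in Lama3 (9.02 against 7.29), Lamb3 and Col4a3, and wild-type normoxia replicate 1 (open diamond) is the highest array in Col1a1, Col1a2 and Col3a1.

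Of the 11 fibrillar collagens, 0 were called in either hyperoxia comparison or in their average, and 0 had an unadjusted p under 0.05 in any of these 3, where 18.2%, 16.7% and 25.8% of all genes did. The unadjusted counts include wild-type normoxia replicate 1 and are not given without it. Without that array the wild-type differences of Col1a1, Col1a2 and Col3a1 were larger, as given below. Col1a1, a chain of collagen I, was at 12.63, 11.22, 11.43 and 10.76 in wild-type normoxia and at 11.61, 11.69, 11.22 and 11.79 in Fgf10+/- normoxia. It ran from 10.89 through 11.88 to 12.46 in wild-type hyperoxia and was at 11.14 and 11.91 in Fgf10+/- hyperoxia. Col1a2, its partner, was at 14.63, 12.82, 12.62 and 11.53 in wild-type normoxia, at 13.38, 13.08, 12.82 and 13.50 in Fgf10+/- normoxia, from 12.45 through 13.40 to 14.11 in wild-type hyperoxia and at 12.68 and 13.47 in Fgf10+/- hyperoxia. Col3a1, the chain of collagen III, was at 12.98, 11.50, 11.33 and 10.54 in wild-type normoxia, at 12.07, 11.60, 11.16 and 11.29 in Fgf10+/- normoxia, from 10.99 through 11.89 to 12.51 in wild-type hyperoxia and at 11.16 and 11.74 in Fgf10+/- hyperoxia. All 3 were highest in wild-type normoxia replicate 1 and lowest in wild-type normoxia replicate 4, so the groups overlapped.

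The wild-type hyperoxia differences of Col1a1, Col1a2 and Col3a1 were 0.29, 0.47 and 0.26 (SE 0.33, 0.44 and 0.38), with 95% intervals that reached from -0.41 to 0.99, -0.47 to 1.40 and -0.55 to 1.07. Without wild-type normoxia replicate 1 they were 0.66, 1.04 and 0.72 (adjusted p = 0.246, 0.121 and 0.243). In Fgf10+/- they were -0.06, -0.12 and -0.09 (SE 0.45, 0.59 and 0.51). Col5a1 and Col5a2, chains of the collagen V that starts fibrils, differed by -0.14 and 0.29 in wild type and by -0.16 and 0.40 in Fgf10+/- (SE 0.31 to 0.48). Col5a1 read 9.30, 7.65, 7.47 and 6.98 in wild-type normoxia, 8.33, 7.93, 7.79 and 7.74 in Fgf10+/- normoxia, 7.08 through 7.75 to 8.13 in wild-type hyperoxia and 7.43 and 8.15 in Fgf10+/- hyperoxia. It too was highest in wild-type normoxia replicate 1, at 9.30, with 6.98 to 8.33 on the other 15 arrays, and without that array its wild-type difference was 0.34. The other 6 fibrillar genes (Col2a1, Col5a3, Col11a1, Col11a2, Col24a1 and Col27a1) were dim.

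Set side by side, the 16 basement membrane genes had a median hyperoxia difference of 0.16 in wild type and 0.26 in Fgf10+/-, and the 11 fibrillar genes one of 0.07 and -0.12. The median of all genes was -0.08 and -0.04. Positive differences were found for 10 of 16 and 11 of 16 basement membrane genes and for 6 of 11 and 3 of 11 fibrillar genes. Without wild-type normoxia replicate 1 the wild-type medians were 0.07 for basement membrane and 0.34 for fibrillar genes, so their order turned. These medians are descriptions, since the lists were chosen with results of these data known. Per array, the mean of the basement membrane genes minus that of the fibrillar genes in wild type was 1.36 ± 0.52 in normoxia (SD, n = 4) and 1.45 ± 0.11 in hyperoxia (n = 6). For Fgf10+/- it was 1.43 ± 0.25 in normoxia (n = 4) and 1.79 ± 0.49 in hyperoxia (n = 2). Only shifts between arrays can be read from this value. The lowest array was wild-type normoxia replicate 1, at 0.78, and the highest Fgf10+/- hyperoxia replicate 1, at 2.14. The ranges of the 4 groups overlapped.

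**Figure D3:**
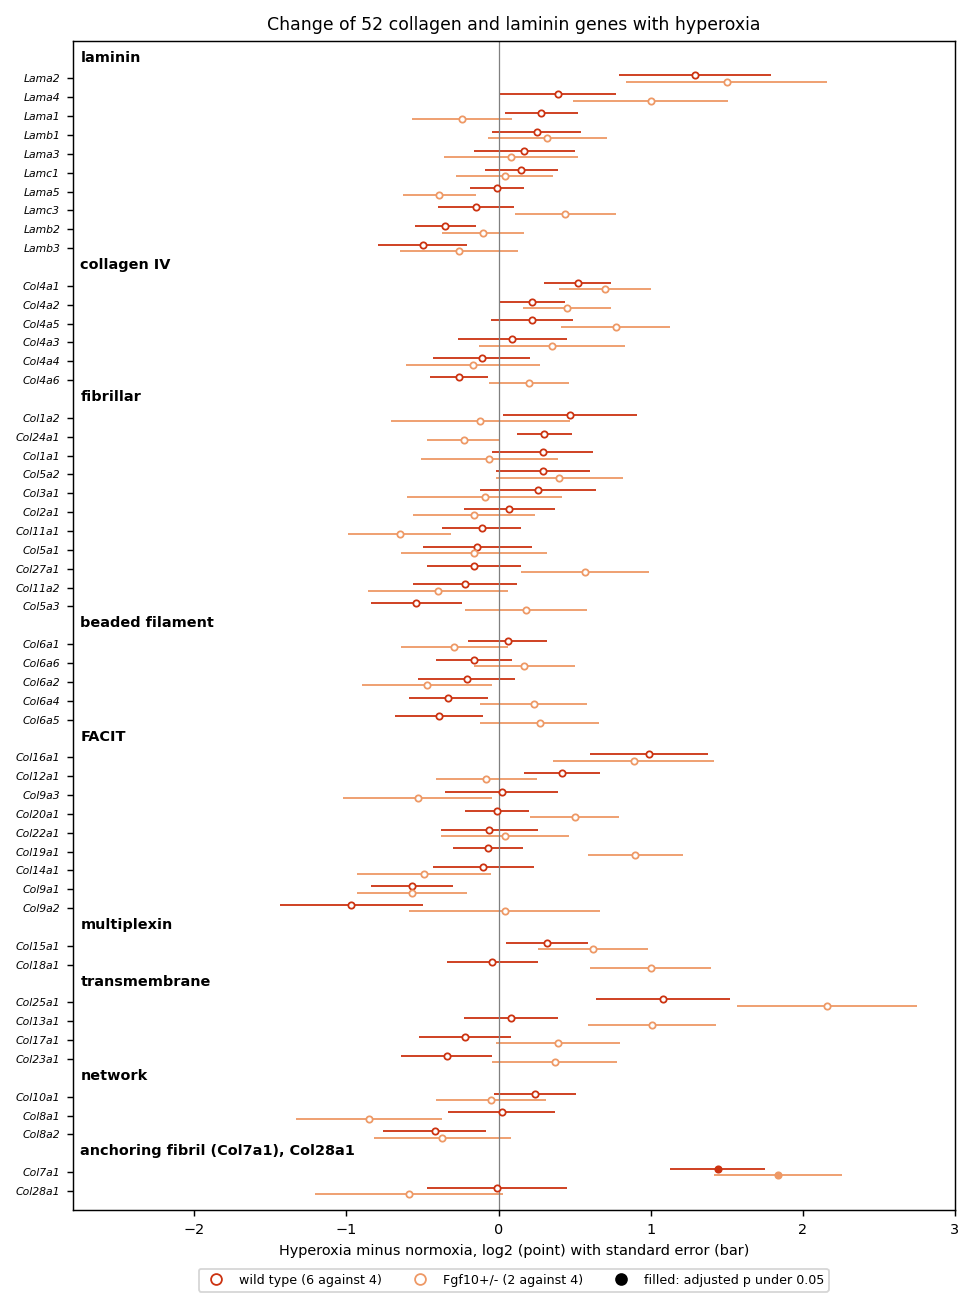
Hyperoxia minus normoxia on the log2 scale (horizontal axis) for the 52 genes by class, in wild type and in Fgf10+/-, with bars of 1 standard error. Filled points have an adjusted p under 0.05, which held for Col7a1 alone (1.44 and 1.84); fibrillar collagens lie on both sides of 0.

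Among the other collagens, Col16a1, a FACIT collagen, was at 10.58, 9.02, 8.50 and 8.27 in wild-type normoxia and at 9.23, 9.25, 9.02 and 9.05 in Fgf10+/- normoxia. It ran from 8.97 through 10.10 to 10.85 in wild-type hyperoxia and was at 9.91 and 10.14 in Fgf10+/- hyperoxia. Its differences were 0.99 (SE 0.39, adjusted p = 0.186) and 0.89 (SE 0.53, adjusted p = 0.429), and the wild-type one was 1.49 without wild-type normoxia replicate 1 (adjusted p = 0.0170). Its other 3 features gave -0.31 to 0.33 in wild type and 0.16 to 0.72 in Fgf10+/-. Col14a1, another FACIT collagen, differed by -0.10 and -0.49 (SE 0.33 and 0.44).

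Col18a1, a basement membrane proteoglycan whose tail is endostatin, was at 9.22, 7.69, 7.40 and 7.67 in wild-type normoxia and at 7.09, 6.94, 7.38 and 6.93 in Fgf10+/- normoxia. It ran from 7.49 through 8.05 to 8.38 in wild-type hyperoxia and was at 7.96 and 8.21 in Fgf10+/- hyperoxia. All 4 Fgf10+/- normoxia samples lay below the other 12 on the feature used (7.38 the highest, against 7.40). Col18a1 did not show this on its other feature, where wild-type normoxia replicate 4 (7.26) lay below Fgf10+/- normoxia replicates 1 and 3 (7.31 and 7.40). Its hyperoxia difference was -0.04 in wild type (SE 0.30; 0.37 without wild-type normoxia replicate 1) and 1.00 in Fgf10+/- (SE 0.40, adjusted p = 0.210). The difference between these was 1.04 (SE 0.50, 95% interval -0.01 to 2.09, unadjusted p = 0.0515, adjusted p = 1), so it was not called; it was 0.64 without wild-type normoxia replicate 1. Col15a1, its relative, was dim (mean 4.26). It read 4.40, 3.87, 4.44 and 3.92 in wild-type normoxia, 3.83, 4.06, 3.67 and 4.03 in Fgf10+/- normoxia, 3.54 through 4.55 to 5.19 in wild-type hyperoxia and 4.50 and 4.54 in Fgf10+/- hyperoxia. Its differences were 0.32 and 0.62 (SE 0.27 and 0.36), and in wild type the groups overlapped.

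Col25a1, a membrane-bound collagen, was dim, at 5.04, 3.75, 5.16 and 5.48 in wild-type normoxia and at 2.64, 3.87, 4.58 and 4.51 in Fgf10+/- normoxia. It ran from 5.01 through 5.77 to 7.20 in wild-type hyperoxia and was at 6.03 and 6.08 in Fgf10+/- hyperoxia. The groups of Fgf10+/- did not overlap, as for 12.4% of all genes higher in Fgf10+/- hyperoxia. Its differences were 1.08 (SE 0.44, adjusted p = 0.197) and 2.16 (SE 0.59, adjusted p = 0.0664). Its other 3 features, with means of 3.57 to 4.00, gave -0.96 to -0.19 in wild type and 0.39 to 1.47 in Fgf10+/-, so the wild-type direction rests on 1 feature. With the mean of all features the averaged rise was 0.57 and was not called (adjusted p = 0.108). Col17a1, the hemidesmosome collagen, was dim (mean 4.19). It read 4.87, 3.34, 4.47 and 4.39 in wild-type normoxia, 4.14, 4.55, 3.87 and 4.09 in Fgf10+/- normoxia, 2.98 through 4.27 to 4.33 in wild-type hyperoxia and 4.75 and 4.35 in Fgf10+/- hyperoxia. Its differences were -0.22 and 0.39 (SE 0.30 and 0.41), and the wild-type one was -0.02 without wild-type normoxia replicate 1. Col6a1, a chain of the beaded filaments of collagen VI, read 12.20, 11.40, 11.62 and 10.72 in wild-type normoxia, 11.88, 11.62, 11.47 and 11.95 in Fgf10+/- normoxia, 11.03 through 11.71 to 11.94 in wild-type hyperoxia and 11.38 and 11.51 in Fgf10+/- hyperoxia. Col6a2, another chain of these filaments, read 10.31, 9.36, 9.10 and 8.39 in wild-type normoxia, 9.44, 9.77, 9.23 and 9.70 in Fgf10+/- normoxia, 8.26 through 9.27 to 9.54 in wild-type hyperoxia and 8.96 and 9.18 in Fgf10+/- hyperoxia. Both were highest in wild-type normoxia replicate 1, without which the wild-type differences were 0.30 for Col6a1 and 0.13 for Col6a2. They differed by 0.06 and -0.21 in wild type and by -0.29 and -0.47 in Fgf10+/- (SE 0.26 to 0.43). Lama2, Lama4, Col25a1, Col4a5, Col4a6, Col5a2 and Col14a1 were named after their values were seen.

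Between genotypes 0 of the 52 members were called. In normoxia 0.00965% of all genes (2) were called, and 5 members had an unadjusted p under 0.05, where 6.03% of all genes did. These were Col12a1 (0.88), Lama3 (0.80), Col13a1 (-0.74), Col19a1 (-0.74) and Col18a1 (-0.91, SE 0.32, adjusted p = 0.679), given as Fgf10+/- minus wild type, and of them Col12a1, Col13a1 and Col19a1 were dim. Without wild-type normoxia replicate 1 the differences of Lama3 and Col18a1 were 0.59 and -0.50. Lama3, Col18a1 and Col19a1 had another feature. Its wild-type and Fgf10+/- normoxia means were 6.01 and 6.15 for Lama3 and 7.83 and 7.08 for Col18a1. For Col19a1 they were 3.70 and 3.91, the opposite direction. Col18a1 was the 1 member lower in every Fgf10+/- than in every wild-type normoxia sample, which held for 2.04% of all genes. On its other feature these groups overlapped. Higher in every Fgf10+/- normoxia sample were 0 members, against 1.42% of all genes. In hyperoxia limma called 0 of 20726 genes, and 2 members (Col24a1 and Col6a5, both dim) had an unadjusted p under 0.05, where 4.38% of all genes did. There 4 members were higher without overlap and 1 was lower, against 3.68% and 3.31% of all genes. The difference between the hyperoxia effects of the genotypes was called for 0 members and for 0.00965% of all genes (2); 1 member, Col19a1, had an unadjusted p under 0.05, where 4.11% of all genes did. In hyperoxia the means of the 6 collagen IV chains were higher in Fgf10+/-, by 0.26 to 0.82, with 0 called and 2 samples in that group. Fgf10+/- hyperoxia replicate 2 alone lay below the wild-type mean in Col4a3 (6.80 against 6.93) and Col4a4 (9.00 against 9.22). The median over the 16 basement membrane genes was 0.26 in this comparison and -0.11 without Fgf10+/- hyperoxia replicate 1. The AT1 markers were higher in Fgf10+/- for 9 of 9 in hyperoxia (median 0.60) and for 9 of 9 in normoxia (median 0.39). Their part in the genotype differences was not tested. The wild-type groups and the Fgf10+/- groups each enter more than 1 of these comparisons.

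In the 2 hyperoxia comparisons the unadjusted p was under 0.05 for 6 and 8 of the 52 members, and for 18.2% and 16.7% of all genes. Whether the members' shares differed from these was not tested. The 13 members that did not overlap and were higher in Fgf10+/- hyperoxia (2 samples against 4) and the 3 that were lower stand beside 12.4% and 13.6% of all genes. The 13 were Col4a1, Col4a2, Col7a1, Col13a1, Col15a1, Col16a1, Col18a1, Col19a1, Col25a1, Col27a1, Lama2, Lama4 and Lamb1. The 3 were Col6a2, Col9a1 and Col11a1. In wild type (6 against 4), 1 member was higher and 0 were lower, beside 3.13% and 4.02%.

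The partners of the matrix genes were counted too; in the averaged comparison their counts stand beside the 4.97% of all genes called higher and 6.14% called lower. Of the other basement membrane components, 0 of 16 were called in either hyperoxia comparison. Those with the smallest wild-type p were Sparc, a collagen-binding protein (0.39, SE 0.16, adjusted p = 0.204), and Nid1, nidogen, which links laminin to collagen IV (0.86, SE 0.37, adjusted p = 0.222). Averaged over genotypes, Nid1 (1.08, SE 0.31, adjusted p = 0.0316) and Frem1 (1.55) rose and Fras1 (-0.72) fell. Frem1 and Fras1 act together at the epithelial basement membrane. Nid1 lay between 8.54 and 9.83 in hyperoxia and between 7.47 and 8.36 in normoxia apart from wild-type replicate 1, at 9.88, which was the highest array.

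Of 28 measured genes of collagen synthesis and crosslinking, 0 were called in either hyperoxia comparison, with P4hb, a subunit of prolyl hydroxylase, at -0.58 (SE 0.19, adjusted p = 0.111) and the dim Loxl4 at 0.65 in wild type. Averaged over genotypes Pcolce2, an enhancer of procollagen processing, rose (1.42, SE 0.39, adjusted p = 0.0282) and the dim Lox, which crosslinks collagen, fell (-0.72, SE 0.20, adjusted p = 0.0302). Of 17 receptors 0 were called in either, with Sdc4, a syndecan, at -1.25 and Itga1, the alpha chain of a collagen-binding integrin, at 1.16 in wild type (adjusted p = 0.0734 and 0.0953). Averaged, Itga1 rose (1.07, adjusted p = 0.0322) and Itga7, the alpha chain of a laminin-binding integrin, fell (-0.74, adjusted p = 0.0133).

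Of 18 matrix proteases and inhibitors 0 were called in either hyperoxia comparison and 0 in their average, where 4 had an unadjusted p under 0.05 (25.8% of all genes did); Timp4 (dim) and Timp1, inhibitors of metalloproteinases, differed by -1.05 and 0.87 in wild type. Timp1 differed by -1.50 in Fgf10+/- (adjusted p = 0.0922). Of 22 other interstitial matrix genes 0 were called in either, with Fbln2 at -0.79 and Mfap4, a protein of elastic fibres, at 2.33 in wild type (adjusted p = 0.0827 and 0.0951). Averaged, Mfap4 (3.02, adjusted p = 0.00470) and Ltbp2 (1.46) rose while Fbln2 (-0.96, adjusted p = 0.00548) and Fmod (-0.90) fell. Over the 5 lists, the averaged comparison called 3 of 16, 2 of 28, 2 of 17, 0 of 18 and 4 of 22, where 11.1% of all genes were called.

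**Figure D4:**
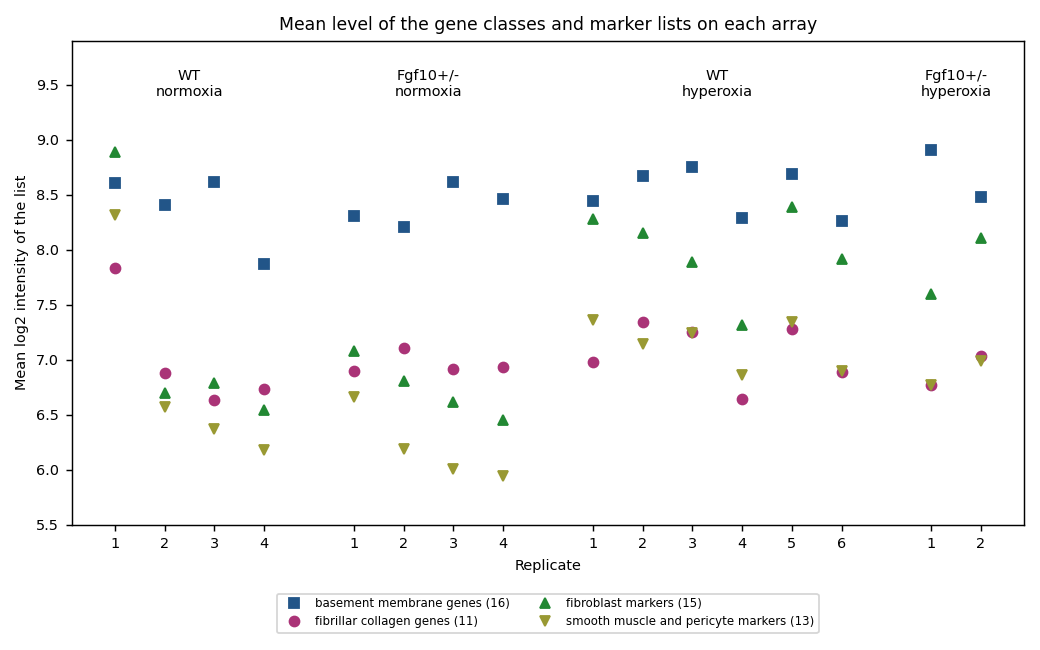
Mean log2 intensity (vertical axis) of the 16 basement membrane genes, the 11 fibrillar collagens, 15 fibroblast markers and 13 smooth muscle and pericyte markers on each of the 16 arrays, by group and replicate (horizontal axis). The fibroblast means are 7.32 to 8.39 in hyperoxia and 6.45 to 7.08 in normoxia apart from wild-type replicate 1 (8.89), while the fibrillar means overlap.

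Marker means of other cell types also differed between hyperoxia and normoxia arrays. The mean of 15 fibroblast markers was 7.32 to 8.39 on the 8 hyperoxia arrays, 6.45 to 7.08 on 7 normoxia arrays and 8.89 on wild-type normoxia replicate 1. Differences were positive for 12 of the 15 in each genotype, and 5 (Pdgfra, Lum, Twist2, Wnt2 and Inmt) were dim. The mean of 13 smooth muscle and pericyte markers was 6.77 to 7.36, 5.94 to 6.66 and 8.32 in the same order, with 6 dim (Des, Myocd, Cspg4, Rgs5, Lmod1 and Synpo2). The mean of 14 endothelial markers was 8.11 to 9.43 in hyperoxia, 8.14 to 8.62 in wild-type normoxia and 7.43 to 7.82 in Fgf10+/- normoxia, with Pecam1, Tek and Emcn dim. Averaged over genotypes, 5 of the 15 fibroblast markers and 6 of the 14 endothelial markers rose, and of the 13 smooth muscle and pericyte markers 2 rose and 1 fell. In that comparison 4.97% of all genes were called higher and 6.14% lower. In Fgf10+/- alone, 2 fibroblast markers (Meox2 and Inmt) and 3 endothelial markers (Cldn5, Egfl7 and Ramp2) rose. There 1.18% of all genes were called higher and 1.26% lower. In wild type 0 were called in each of these lists, beside 3.13% of all genes. The 7 mesothelial markers were all lower in hyperoxia in both genotypes (medians -0.42 and -1.38); 2 fell in Fgf10+/- and 3 in the average. Their mean was 8.47 to 9.61 on the hyperoxia arrays and 9.08 to 10.44 on the normoxia arrays. The mean of 10 thymocyte markers was 5.54 to 6.43 on 4 normoxia arrays (wild-type replicate 4 and Fgf10+/- replicates 1, 2 and 4) and 4.01 to 4.75 on the other 12, with all but Tcf7 dim. Without those 4 arrays Col7a1 differed by 1.45 in wild type and 1.54 in Fgf10+/- (adjusted p = 0.0847 and 0.481), and 0 members were called. The part of these cells in the results above was not tested. In bulk RNA, fewer cells of a type and less RNA per cell cannot be told apart.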

How the data were processed

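RNA from 16 samples was measured on single-colour Cy3 arrays, Agilent per the kit in the labels' protocols. The deposited values were log2 intensities (range -0.40 to 15.98, median 4.34), and the log base is inferred from the range. At any rank the sorted arrays were within 0.20 of each other, so the authors had already normalized them. The method, the background correction, slides and scans are not stated in the sources. The series lists its 8 normoxia samples before its 8 hyperoxia samples. Whether they were processed apart is not stated, and such a batch could not be told apart from oxygen. Of 62976 features, 31465 had 1 gene symbol in the platform annotation, 31511 had none and 0 had several; 65 features had a missing value. Members were taken by listed symbol, so 2 features listed as Emid2 and Gm7455, whose accessions RefSeq gives to Col26a1 and Col6a5, were left out. The highest-mean feature stood for each gene.

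A model of 4 group means was fitted to 20726 genes with limma 3.58.1 (R 4.3.3), all 16 samples sharing 1 estimate of the spread, with Benjamini-Hochberg adjustment over all genes and a threshold of 0.05. The number of arrays limits the precision. The fit was tested in 5 runs of simulated data with 200 changed genes and independent noise. In wild type 40.8% of 2-fold and 91.8% of 4-fold changes were recovered. In Fgf10+/- these shares were 14.8% and 65.8%. A member that was not called can therefore still have changed.

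Named genes were members called in any of 5 comparisons, the 3 highest-mean members per class and a list of epithelial and abundant chains; pathway genes were named where called or by the 2 smallest wild-type p-values. The members, lists and rules were chosen with earlier results of these data known. Marker lists not described in the text are those of macrophages (mean 5.77 to 6.85 in hyperoxia, 5.30 to 6.58 in normoxia) and red blood cells (8.60 to 11.53 and 8.27 to 11.29). Alternatives were a filter at 6, the mean of all features, arrays centred or quantile normalized again, other variance settings, only the groups compared, a replicate block, and leaving out arrays.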

Additional observations from a re-analysis of the deposited data

Results flagged for a closer look

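Among the 81 groups of 4 to 6 arrays tested for a sample far from the others (chance marks about 5% of groups), 4 had one. Lama2 was at 7.99 in wild-type normoxia replicate 1, with 5.02 to 5.21 in the other 3. Col18a1 was at 9.22 in the same array, with 7.40 to 7.69 in the others. Col17a1, which was dim, was at 2.98 in wild-type hyperoxia replicate 3, with 4.13 to 4.33 in the other 5. The mean of the fibrillar collagens was 7.11 in Fgf10+/- normoxia replicate 2, with 6.90 to 6.93 in the other 3.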

How the results depend on the processing

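The number of members called in wild type (1) was 0 with the replicate block, 2 without wild-type normoxia replicates 1 and 4 and 0 without the 4 arrays highest in thymocyte markers; with 1 array left out it was 0 (without wild-type normoxia replicate 2) to 3 (without wild-type normoxia replicate 1). In Fgf10+/- (1) it was 2 with trend and robust variances, 0 with the block, 0 without the 4 arrays and 0 to 2 with 1 array left out. For the average (4) it was 1 with the mean of all features, 2 with the block, 0 without the 4 arrays and 2 to 7 with 1 array left out. The basement membrane median was -0.12 in wild type without replicates 1 and 4, 0.00 in Fgf10+/- without the 4 arrays, and -0.11 to 0.34 between genotypes in hyperoxia with 1 array left out. The fibrillar median was 0.37 in wild type, 0.25 between genotypes in normoxia and -0.53 for the difference of effects without replicates 1 and 4, 0.26 for the latter without the 4 arrays, and -0.25 to 0.20 in Fgf10+/- and -0.35 to 0.11 between genotypes in hyperoxia with 1 array left out. Basement membrane minus fibrillar was -1.26, -1.28, -1.35 and -0.95 in normoxia (wild type, then Fgf10+/-) and hyperoxia (the same order) with genes of mean at least 6, since the sign depends on which probes enter, and 1.16 and 1.17 in Fgf10+/- normoxia and wild-type hyperoxia with the mean of all features. Both left-out sets of arrays were chosen after seeing the data; the cause of the other changes was not tested.

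Counts over all genes moved by over 1.5 times too. The 649 called in wild type were 1172 with genes of mean at least 6, 999 with trend and robust variances, 216 with the block, 290 without replicates 1 and 4 and 278 without the 4 arrays. The 507 in Fgf10+/- were 792 with genes of mean at least 6, 332 with the mean of all features, 261 with only the groups compared, 103 with the block and 14 without the 4 arrays. The 2302 of the average were 1380 with the block and 467 without the 4 arrays. Leaving out 1 array took the wild-type count to 323 or 381 (wild-type normoxia 2 or 4), the Fgf10+/- count to 252, 278, 90 or 108 (Fgf10+/- normoxia 1 or 4, hyperoxia 1 or 2) and the averaged count to 1179 or 1183 (Fgf10+/- hyperoxia 1 or 2). The counts for genotype and for the difference of effects, at most 2, lay between 0 and 10 under the alternatives. Replicate numbers are shared by the groups, but 18 same-number pairs correlated at -0.16 to 0.24 (median 0.04, 4 over 0.1), so the numbers were not taken to pair samples. No single gene reversed while called: of 597 values each, 3 lost and 3 gained a call in wild type, and 6 and 2 in Fgf10+/-; of 573 for the average, 32 and 8. No detection call came with the arrays, so low values have no measured background.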
